A study of Saccharomyces cerevisiae with 6 samples.

Results

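The genes described are 52 nuclear genes of budding yeast that encode the enzymes of the tricarboxylic acid (TCA) cycle, the respiratory complexes and the ATP synthase. They were taken by name from a list, and the platform annotation gave each at least 1 probe set of its own, so all 52 were found among the 5656 genes measured. The list holds 17 genes of the cycle (4 of them for succinate dehydrogenase), 3 for NADH dehydrogenases, 11 for complex III and cytochrome c, 9 for complex IV and 12 for the ATP synthase. Transcripts were compared between 3 [GAR+] cultures and 3 [gar-] cultures of the laboratory strain W303, with 1 Affymetrix array per culture. [GAR+] is a prion, a self-propagating protein state inherited without a DNA change, that lets yeast grow on other carbon sources in the presence of a glucose mimic, and [gar-] cells are without it. All 6 cultures grew in complete synthetic medium with 2% glucose to late exponential phase, at an OD600 of about 0.8. The sources used here give neither how the [GAR+] state was obtained nor what cultures of the same number share.

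The TCA cycle oxidises acetyl-CoA in the mitochondrion and loads its electrons onto NADH and onto succinate dehydrogenase. Budding yeast has no proton-pumping complex I. Single-subunit NADH dehydrogenases pass the electrons to ubiquinone, from where they travel through complex III, cytochrome c and complex IV to oxygen, while the ATP synthase uses the resulting proton gradient. Yeast in ample glucose ferments and represses many of these genes, which the Hap activator complex switches on when glucose runs out. The first steps of the cycle also answer to the retrograde pathway, which signals from the mitochondrion to the nucleus through Rtg proteins, and CIT2 is its best-known target.

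Each level is an MAS5 signal, quantile-normalized here across the 6 arrays, which had been deposited on unlike scales. A signed value is the mean log2(signal + 16) of the [GAR+] cultures minus that of the [gar-] cultures. The added 16 makes the change of a dim gene look smaller than it is. A probe set passed when its adjusted p, from limma with Benjamini-Hochberg adjustment over all 6504 tested probe sets, was under 0.05. Since the signals are set by each probe set's own probes, a gene is compared with itself across cultures. For 5 isoenzyme or subunit pairs the log2 difference between the genes within an array is compared in the same way, and its size alone has no meaning.

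HXT3, a glucose transporter gene known to be low in [GAR+] cells, read 58.7, 75.4 and 42.8 in the [GAR+] cultures, against 4404, 4347 and 3559 in the [gar-] cultures. It fitted the labels of all 6 arrays and was the 1 probe set that passed. Whether its low level in [GAR+] is known apart from these arrays is not given here, so HXT3 is not an independent check of the labels. On both sides the array numbered 2 lay away from the other 4 arrays on the first principal component, which held 39.7% of the variance. The ratio of the 3' to the 5' actin probe set, a measure of RNA integrity, was 1.31, 1.045 and 1.29 in [GAR+] cultures 1, 2 and 3, against 1.64, 1.17 and 1.42 in [gar-] cultures 1, 2 and 3. It was thus lower in [GAR+] at each number, and its part in the results was not tested. Among markers of mating type and sporulation, 6 of mating type a summed to between 6411 and 8518 in [GAR+] and between 5334 and 6767 in [gar-]. Each of these 6 read above the controls on all 6 arrays. Their changes ran from -0.09 for BAR1 to 0.63 for MFA1, with 4 above 0 and 2 below. MFA1 read 2132, 3559 and 1990 in [GAR+], against 2401, 1416 and 1192 in [gar-], so it weighed much in the sums. The 4 markers of mating type alpha summed to between 108.5 and 138.1 in [GAR+] and between 102.9 and 116.2 in [gar-]. Of these STE3 read 13.01 to 16.5 in [GAR+] and 14.3 to 19.3 in [gar-], near the controls. SAG1 read 53.3 to 70.7 in [GAR+] and 58.1 to 64.1 in [gar-], above the controls on all 6 arrays. Their changes were -0.05 for STE3, 0.03 for SAG1, 0.39 for MF(ALPHA)1 and 0.19 for MF(ALPHA)2. The 7 sporulation markers summed to between 123.1 and 132.1 in [GAR+] and between 116.6 and 134.1 in [gar-].

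The comparison asked whether the prion state changes the transcripts of respiration in glucose-grown cells. No member passed, so 0 of 52 were called higher and 0 lower, where the share called among all tested probe sets was 0.0154%. Before adjustment, limma's p was under 0.05 for 2 members, IDH2 and CIT3, against 2.98% of all tested probe sets. With the culture number as a block it found 6 members, against 6.78% of all, and still called none. The median change of the 52 genes was -0.02, beside 0.007 for all tested probe sets, with 23 above 0 and 29 below. For 49 of the 52 genes the 95% confidence interval lay within 2-fold in either direction, and for 31 it lay within 1.5-fold. The exceptions at 2-fold were CIT2, IDH1 and COX5B. Among all tested probe sets 96.1% lay within 2-fold, and of all genes, with 1 probe set each, 3500 of 5656 lay within 1.5-fold. The 49 genes include NDE2 and CIT3, whose intervals bound little, as the added 16 narrows them at signals near the controls. Signs near 0 depend on the scaling, since 17 of the 52 genes changed sign without normalization between arrays, where the median of all tested probe sets was 0.16.

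**Figure D1:**
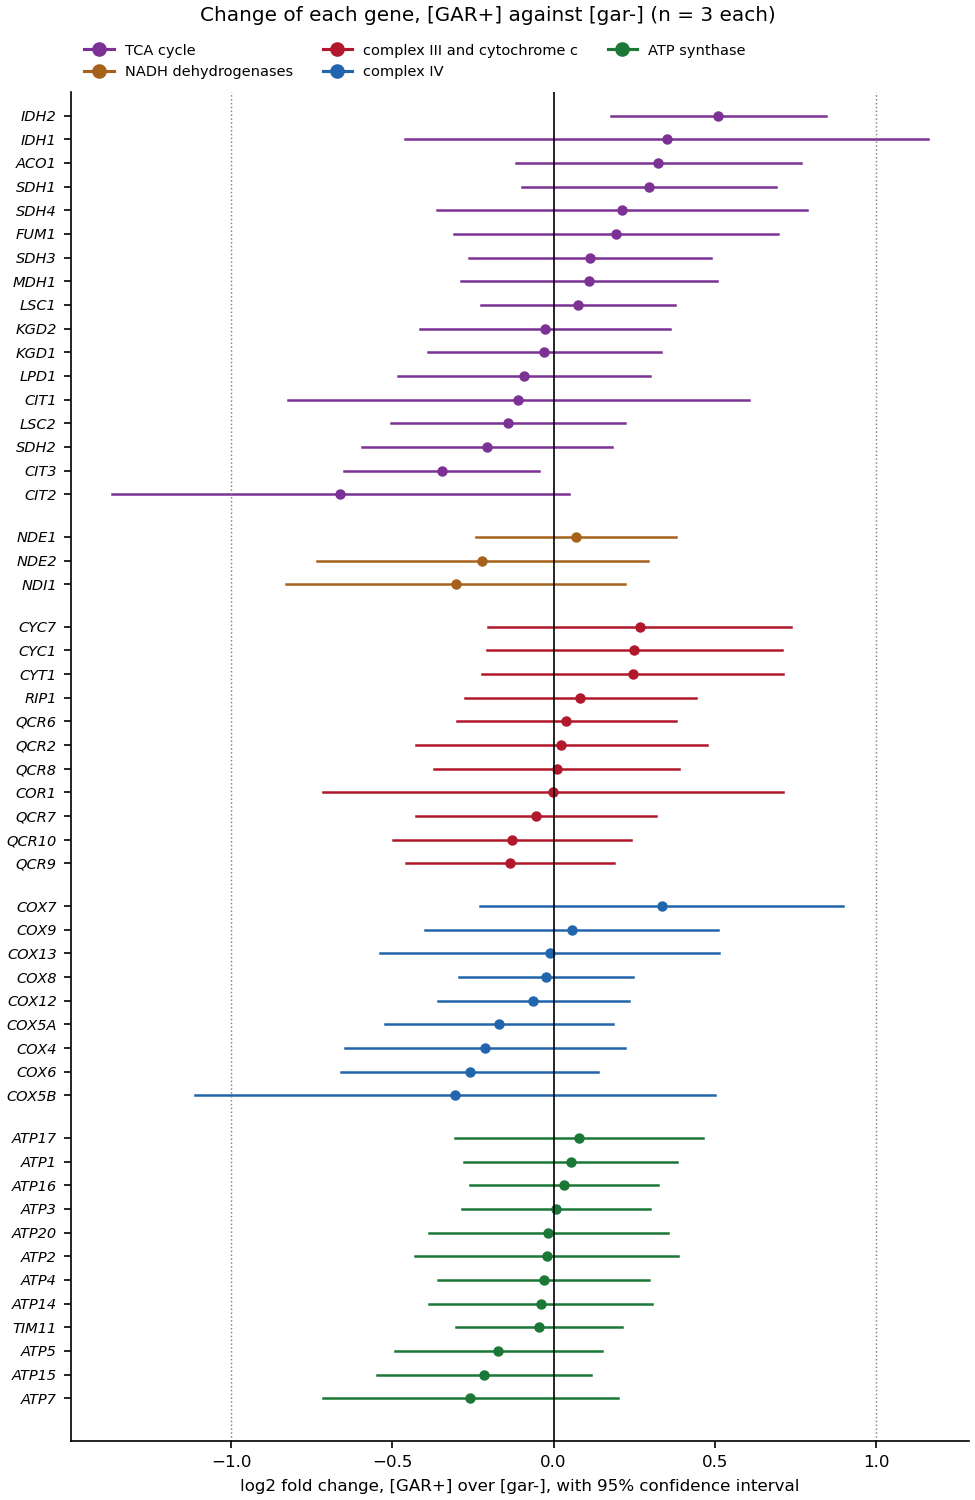
Log2 fold change of [GAR+] over [gar-] for each of the 52 genes with its 95% confidence interval (3 cultures per group), sorted within the TCA cycle and each complex; dotted lines mark a 2-fold change. Only IDH2 and CIT3 have an interval that leaves out 0, and the intervals of CIT2, IDH1 and COX5B pass the 2-fold lines.

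The [GAR+] and [gar-] cultures did not overlap for 3 members, IDH2 higher and CIT3 and ATP5 lower. That compares with 8.86% of all tested probe sets, of which 4.41% lay fully higher and 4.44% fully lower. At every culture number 7 members read higher in [GAR+] (15.4% of all probe sets did) and 9 read lower (13.5% of all). The higher were ACO1, IDH1, IDH2, SDH1, CYT1, CYC1 and CYC7. The lower were CIT1, CIT2, CIT3, KGD1, SDH2, NDI1, COX8, ATP5 and ATP15.

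Among the 17 genes of the TCA cycle lay both the lowest and the highest change of the 52, those of CIT2 and IDH2. CIT2 (YCR005C) encodes the peroxisomal citrate synthase, which serves the glyoxylate cycle. It read 937, 468 and 418 in [GAR+] cultures 1, 2 and 3, against 1267, 878.5 and 673 in [gar-] cultures 1, 2 and 3. [GAR+] was the lower at each number, yet the groups overlapped, because [GAR+] culture 1 lay above [gar-] cultures 2 and 3. CIT2 had a log2 fold change of -0.66, with a standard error of 0.32 and a 95% confidence interval of -1.37 to 0.05, the lowest of the 52, and its unadjusted p in limma was 0.0639 (adjusted p = 1.00). With the culture number as a block the unadjusted p was 0.00114 and the adjusted p 0.735. Leaving out 1 array at a time gave -1.02 to -0.43, with the lowest value without [GAR+] culture 1 and the highest without [gar-] culture 1.

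CIT1 (YNR001C), the mitochondrial citrate synthase of the cycle itself, read 916, 417 and 723 in [GAR+], against 932, 463.5 and 809 in [gar-]. Both cultures numbered 2 were low, and the same-numbered cultures differed by at most 0.16 on the log2 scale, for a change of -0.11 with a standard error of 0.32. CIT3, a second mitochondrial citrate synthase gene, read 11.6, 13.1 and 8.48 in [GAR+], against 20.5, 16.96 and 17.7 in [gar-]. Its change was -0.35 (unadjusted p = 0.0283 and adjusted p = 1.00, limma). Of its 6 readings 1 was above the highest control for sequences foreign to yeast on the same array (15.1 to 20.2 in [GAR+] and 12.7 to 27.6 in [gar-]), so its signal was not clear of the controls.

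ACO1 encodes aconitase, which isomerises citrate, and read 1161, 789 and 1186 in [GAR+], against 789, 711.5 and 974 in [gar-]. IDH2 (YOR136W) encodes the catalytic subunit of the NAD-dependent isocitrate dehydrogenase and read 1735, 1497 and 1650 in [GAR+], against 1194, 963.5 and 1271 in [gar-]. All 3 [GAR+] readings of IDH2 lay above all 3 [gar-] readings. IDH2 averaged 1627 ± 121 in [GAR+] and 1143 ± 160 in [gar-] (SD, n = 3 each), a change of 0.51 with a standard error of 0.15 and an interval of 0.18 to 0.84. That is 1.42-fold, the highest value and the smallest unadjusted p of the 52 (0.00677, adjusted p = 1.00, limma). Without 1 array in turn it stayed between 0.39 and 0.59.

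IDH1, the regulatory subunit of the same enzyme, read 592, 220 and 462.5 in [GAR+], against 381.5, 195 and 378 in [gar-]. Its change of 0.35 had a standard error of 0.36, and both cultures numbered 2 read far below the rest. With 1 array left out in turn IDH1 ranged from 0.05 without [gar-] culture 2 to 0.75 without [GAR+] culture 2, and ACO1 from 0.23 to 0.51 without the same arrays. At culture numbers 1, 2 and 3 the differences were 0.61, 0.16 and 0.28 for IDH1, and 0.53, 0.63 and 0.37 for IDH2. ACO1 gave 0.55, 0.15 and 0.28 and CIT2 gave -0.43, -0.89 and -0.67. These genes, with CIT3 and CYC1, made up the 6 members with an unadjusted p under 0.05 in the blocked fit (0.00195 for IDH2, 0.0339 for ACO1 and 0.0403 for IDH1), and each had an adjusted p of 0.735 there.

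**Figure D2:**
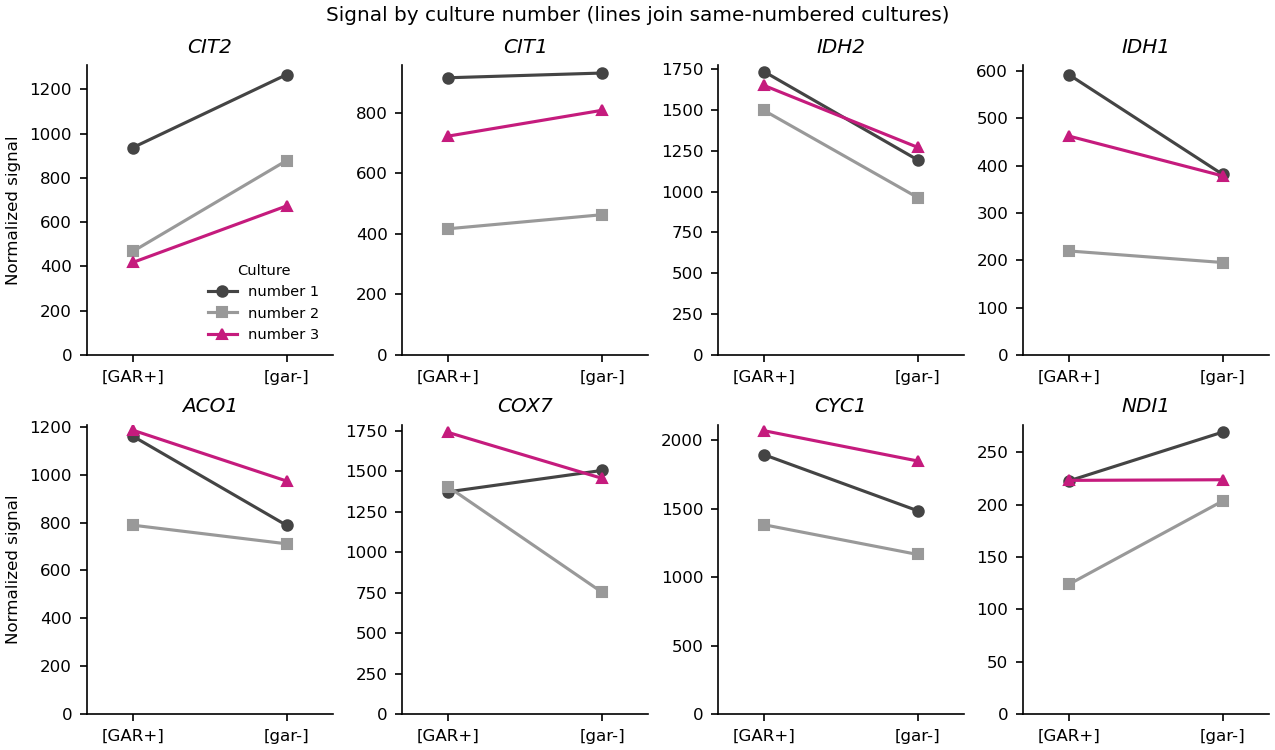
Normalized signal (linear axes from 0) of 8 genes in each culture, with lines joining [GAR+] (left) and [gar-] (right) cultures of the same number. CIT2 reads lower in [GAR+] and IDH2, IDH1, ACO1 and CYC1 higher at each number, while COX7 rests on its low reading of 752 in [gar-] culture 2.

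KGD1 and KGD2, which encode components of the 2-oxoglutarate dehydrogenase, gave -0.03 each, and LPD1, the dihydrolipoamide dehydrogenase they share with other complexes, gave -0.09. KGD1 read 455, 386 and 481 in [GAR+], against 456, 403 and 489 in [gar-], so the same-numbered cultures nearly coincided. LSC1 and LSC2, the subunits of succinyl-CoA ligase, gave 0.08 and -0.14. Their values lay within the spread of the cultures.

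Succinate dehydrogenase, which is also complex II, had members on both sides of 0. SDH1, the flavoprotein subunit, read 174, 183 and 231 in [GAR+], against 138, 156 and 174 in [gar-], a change of 0.30 with a standard error of 0.18 (unadjusted p = 0.125, limma). The groups just overlapped, as the lowest [GAR+] reading was 174.0 and the highest [gar-] reading 174.1. SDH2, the iron-sulfur subunit, gave -0.21 and read lower in [GAR+] at each number. The membrane anchor genes SDH3 and SDH4 gave 0.11 and 0.21. SDH4 read 530, 540 and 541.5 in [GAR+], against 545.5, 288 and 623 in [gar-]. Its value turned to -0.11 without [gar-] culture 2. The same array set the value of FUM1, the fumarase gene, which read 1194, 1313 and 1020 in [GAR+], against 1231, 700 and 1230 in [gar-]. FUM1 gave 0.19 and, without [gar-] culture 2, -0.07. MDH1, the mitochondrial malate dehydrogenase gene that closes the cycle, gave 0.11 with a standard error of 0.18. The median of the 17 genes was 0.08, with 9 above 0, and it was -0.10 without [gar-] culture 2.

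Of the NADH dehydrogenase genes, NDI1 serves the matrix side of the inner membrane and NDE1 and NDE2 the outer side. NDI1 read 223, 124 and 223 in [GAR+], against 269, 204 and 224 in [gar-]. It gave -0.30 with a standard error of 0.23, and the difference at number 3 was -0.004. NDE1 read 1883, 1455 and 1780 in [GAR+], against 1591, 1555 and 1704 in [gar-], a change of 0.07. NDE2 read 1.92, 8.23 and 1.78 in [GAR+], against 1.00, 6.32 and 16.2 in [gar-]. Only its reading in [gar-] culture 3 was above the controls, so its -0.22 says little.

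Complex III passes electrons from ubiquinol to cytochrome c. Its 9 nuclear genes had a median of 0.01 and ranged from -0.14 for QCR9 to 0.25 for CYT1. COR1 and QCR2, the core subunits, gave -0.002 and 0.02. COR1 read 259, 149 and 313 in [GAR+], against 255, 146.5 and 323.5 in [gar-], so cultures of the same number lay closer together than cultures of the same group. The smaller subunit genes QCR6, QCR7, QCR8 and QCR10 gave 0.04, -0.06, 0.01 and -0.13. RIP1, the Rieske iron-sulfur protein gene, gave 0.08, reading 815, 794 and 874 in [GAR+], against 855.5, 645 and 860 in [gar-]. The array's separate control probe set for RIP1 read 551, 547 and 568 in [GAR+], against 604, 375.5 and 610 in [gar-], a difference of 0.10. It too was low in [gar-] culture 2. A second probe set of QCR8 gave -0.06.

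CYC1 encodes the main form of cytochrome c and CYC7 the form made mostly under low oxygen. CYC1 read 1893, 1382 and 2068 in [GAR+], against 1484, 1165 and 1847 in [gar-]. CYC7 read 77.3, 49.7 and 85.5 in [GAR+], against 62.2, 42.4 and 62.2 in [gar-]. Their changes were 0.25 and 0.27 with standard errors of 0.20 and 0.21, and CYT1, the cytochrome c1 gene, gave 0.25 with a standard error of 0.21. Each read higher in [GAR+] at all 3 numbers, with readings that overlapped between the groups. Without [gar-] culture 2 these values were 0.08 for CYC1, 0.13 for CYC7 and 0.08 for CYT1, the lowest of those with 1 array left out. The highest were 0.42 for CYC1 and 0.46 for CYC7, both without [GAR+] culture 2, and 0.39 for CYT1 without [gar-] culture 3. The unadjusted p in limma was 0.248 for CYC1, 0.233 for CYC7 and 0.266 for CYT1. With the culture number as a block it was 0.0478, 0.0961 and 0.131.

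Complex IV, cytochrome c oxidase, reduces oxygen. Of its 9 nuclear genes 2 lay above 0 and 7 below, with a median of -0.06 (0.07 without normalization between arrays) and values from -0.31 for COX5B to 0.34 for COX7. COX7 read 1372, 1402 and 1738 in [GAR+], against 1504, 752 and 1455 in [gar-], and its change was 0.01 without [gar-] culture 2. COX6 read 1236, 924 and 1477 in [GAR+], against 1424, 1513 and 1353 in [gar-], for a change of -0.26. Here the low reading was that of [GAR+] culture 2, without which the change was -0.08. COX4, a gene of -0.21, had the same low array, reading 1003, 782 and 1311 in [GAR+], against 1055, 1187 and 1292 in [gar-]. COX8 varied little between cultures, reading 1384, 1327 and 1380 in [GAR+], against 1405, 1363 and 1388 in [gar-]. COX9, COX12 and COX13 gave 0.06, -0.06 and -0.01.

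COX5A and COX5B encode interchangeable subunits, the second favoured under low oxygen. COX5A read 956.5, 798 and 1121 in [GAR+], against 1070, 1122 and 1020 in [gar-], a change of -0.17. COX5B read 129, 63.96 and 204.5 in [GAR+], against 175, 101 and 200.3 in [gar-], and its change of -0.31 had a standard error of 0.36. Its value was 0.08 without [GAR+] culture 2. As differences within each array, COX5A minus COX5B was 2.75, 3.35 and 2.37 on the log2 scale in [GAR+], against 2.505, 3.29 and 2.26 in [gar-]. It differed between the groups by 0.14 and followed the culture number more than the group.

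In each of the other pairs, too, the readings of the groups overlapped. CIT1 minus CIT2 averaged 0.19 ± 0.50 in [GAR+] and -0.36 ± 0.58 in [gar-] (SD, n = 3 each), 0.55 apart (exact two-sided permutation test, p = 0.4). Within culture numbers 1, 2 and 3 the [GAR+] value was higher by 0.41, 0.74 and 0.51, a mean of 0.55 with an SD of 0.17 (n = 3 differences). Paired by number the exact permutation p was 0.25, the smallest that 3 pairs can give, as it was for COX5A minus COX5B. CYC1 minus CYC7 averaged 4.38 ± 0.03 in [GAR+] and 4.39 ± 0.16 in [gar-], and IDH2 minus IDH1 2.00 ± 0.60 in [GAR+] and 1.84 ± 0.33 in [gar-] (SD, n = 3 each). NDE1 minus NDE2 differed by 0.29, with NDE2 not clear of the controls. The exact permutation p was 0.7 for COX5A minus COX5B, 1.0 for CYC1 minus CYC7, 0.7 for IDH2 minus IDH1 and 0.5 for NDE1 minus NDE2, where 3 against 3 cannot give less than 0.1, so that these p-values could not have passed 0.05.

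The ATP synthase genes had the smallest changes of the 5 sets of genes, with a median size of 0.04 in either direction. Their 12 changes ran from -0.26 for ATP7 to 0.08 for ATP17, with a median of -0.03, and 11 of the 12 had an interval within 1.5-fold. The catalytic core genes ATP1, ATP2 and ATP3, for the alpha, beta and gamma subunits, gave 0.05, -0.02 and 0.01. ATP16 and ATP15, for the delta and epsilon subunits of the central stalk, gave 0.03 and -0.22. ATP15 read 931, 932 and 1108 in [GAR+], against 1115, 1051 and 1294 in [gar-]. It was lower at each number, with the highest [GAR+] reading above the lowest [gar-] reading.

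The stator holds the catalytic core still while the stalk turns. ATP5, the oligomycin-sensitivity subunit of the stator, read 372, 356 and 366 in [GAR+], against 423, 409 and 406 in [gar-]. These readings did not overlap and were close within each group, at 365 ± 7.90 in [GAR+] and 413 ± 9.17 in [gar-] (SD, n = 3 each). ATP5 had a value of -0.17 with a standard error of 0.14, which limma draws in part from probe sets of similar brightness (unadjusted p = 0.261). The other stator genes gave -0.03 for ATP4, -0.26 for ATP7 and -0.04 for ATP14, whose second probe set gave -0.03. ATP7 read 428, 281 and 410 in [GAR+], against 367, 475 and 496 in [gar-], with [GAR+] culture 2 the low one. The membrane subunit genes ATP17, ATP20 and TIM11, the last 2 of which serve dimer formation, gave 0.08, -0.02 and -0.05.

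**Figure D3:**
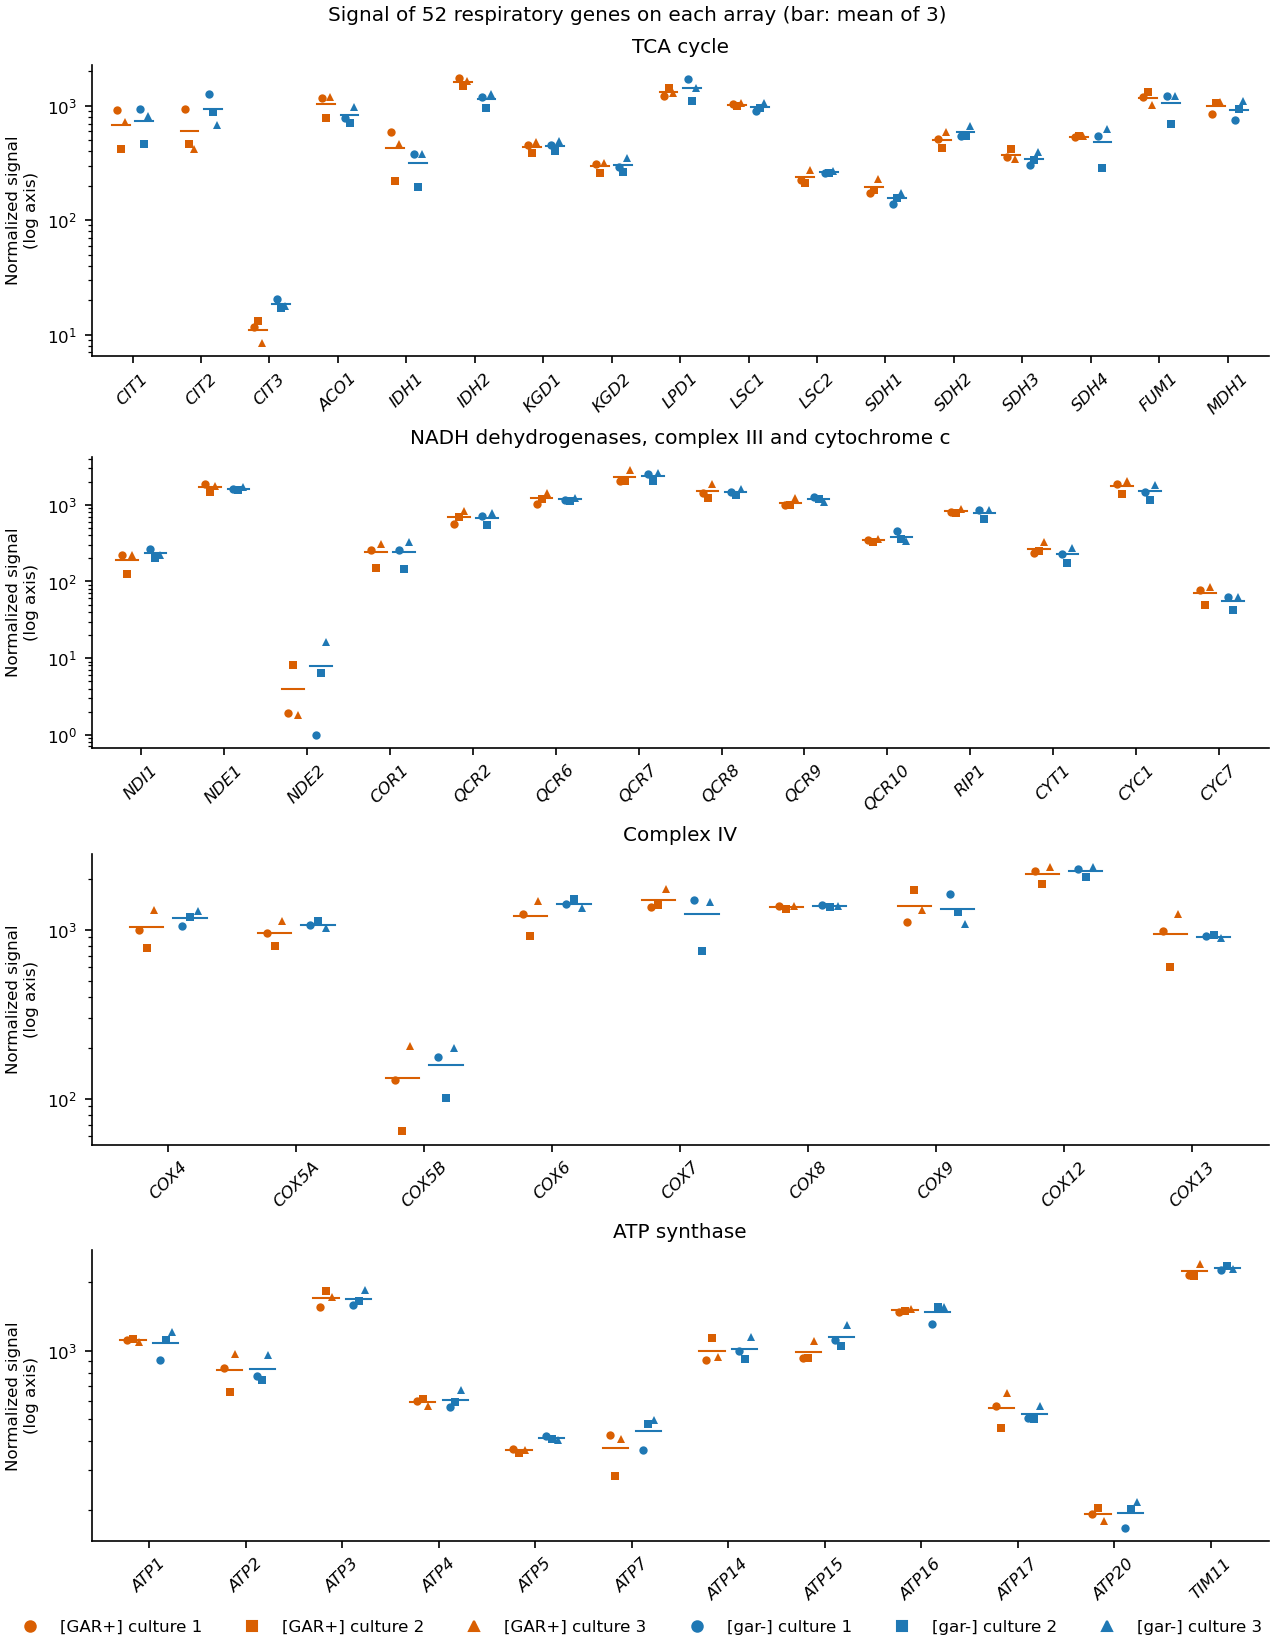
Normalized signal (log axis) of the 52 genes on each array, with [GAR+] cultures in orange left of [gar-] cultures in blue; symbols mark culture numbers 1 (circle), 2 (square) and 3 (triangle) and bars the mean of 3. The groups lie over each other for all but IDH2, CIT3 and ATP5, and NDE2 and CIT3 are near the array's controls.

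Much of the spread among the members was between arrays of the same group. [GAR+] culture 2 was the lowest of the [GAR+] cultures for 31 of the 52 genes, against 36.5% of all tested probe sets. [gar-] culture 2 was the lowest of the [gar-] cultures for 31 of them too, against 34.2% of all. Complex III and cytochrome c had 8 of 11 genes lowest in [GAR+] culture 2 and 9 of 11 lowest in [gar-] culture 2, while the ATP synthase had 5 and 4 of 12. For the TCA cycle these counts were 9 and 12 of 17. Complex IV had 7 of 9 genes lowest in [GAR+] culture 2 and 4 of 9 lowest in [gar-] culture 2. Its median deviation from each gene's mean over the 6 arrays was -0.33 in [GAR+] culture 2 and -0.01 in [gar-] culture 2. For complex III with cytochrome c the same deviation was -0.18 in [GAR+] culture 2 and -0.31 in [gar-] culture 2. That of the TCA cycle was -0.07 in [GAR+] culture 2 and -0.14 in [gar-] culture 2. Without both arrays numbered 2 the median change of the 52 genes was -0.02 and that of the TCA cycle -0.02, and again no member passed.

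**Figure D4:**
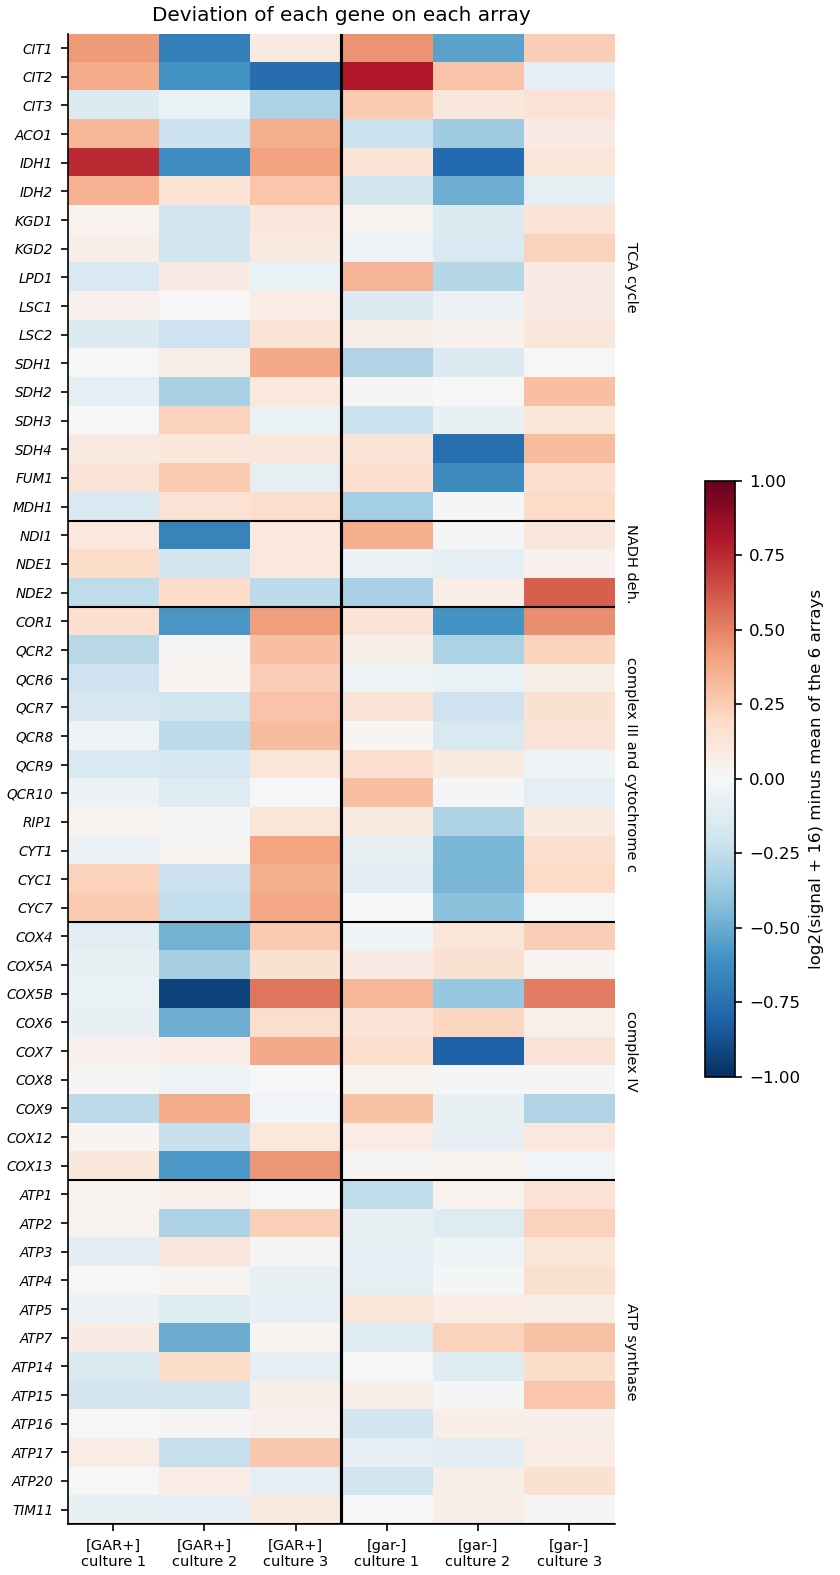
Deviation of each gene's log2(signal + 16) on each array from its mean over the 6 arrays, with [GAR+] cultures left of [gar-] cultures and the genes grouped by complex; red is above and blue below the mean. Blue columns appear at culture 2 in both groups for complex III and cytochrome c, and in [GAR+] for complex IV.

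Other genes that serve respiration were read from the same fit in 11 further lists, with 144 of 146 listed genes measured, and no gene on them passed. The list whose median was farthest from 0 with all 6 arrays was that of 34 assembly factors of complexes III and IV and of cytochrome c, which insert haem and copper or hold subunits together. Its median was 0.28, with 27 of 34 genes above 0 (51.8% of all tested probe sets were), and the groups did not overlap for 7 of them, all higher in [GAR+] (4.41% of all). CYT2, which attaches haem to cytochrome c1, read 335, 289 and 291 in [GAR+], against 193, 167 and 248 in [gar-]. CYC3, which does so for cytochrome c, read 1151, 1140 and 1405 in [GAR+], against 971, 813 and 1091 in [gar-]. CBP3, an assembly factor of complex III, read 363, 338 and 378.5 in [GAR+], against 253, 268 and 271 in [gar-]. All 3 genes were fully separated, at 0.56, 0.36 and 0.42, with unadjusted p of 0.0120, 0.0498 and 0.0183 and an adjusted p of 1.00 in limma.

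COA2, an assembly factor of complex IV, gave 0.53, and the copper carrier gene SCO1 0.33. The highest value was that of PET117 at 0.92. PET117 read 192.5, 182 and 277 in [GAR+], against 158, 36.1 and 183 in [gar-], and OXA1, the insertase gene of the inner membrane, 561, 656 and 429 in [GAR+], against 535, 130 and 496.5 in [gar-]. Both were low in [gar-] culture 2. The median of the 34 genes was 0.07 without [gar-] culture 2, with 23 above 0, and was then nearer to 0 than the medians of the retrograde genes (-0.16), the mitochondrially encoded transcripts (-0.13), pyruvate entry (-0.13) and the translation activators (0.13). It was 0.19 without both arrays numbered 2, with 27 above 0. The lowest value was that of COX16, at -0.13.

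**Figure D5:**
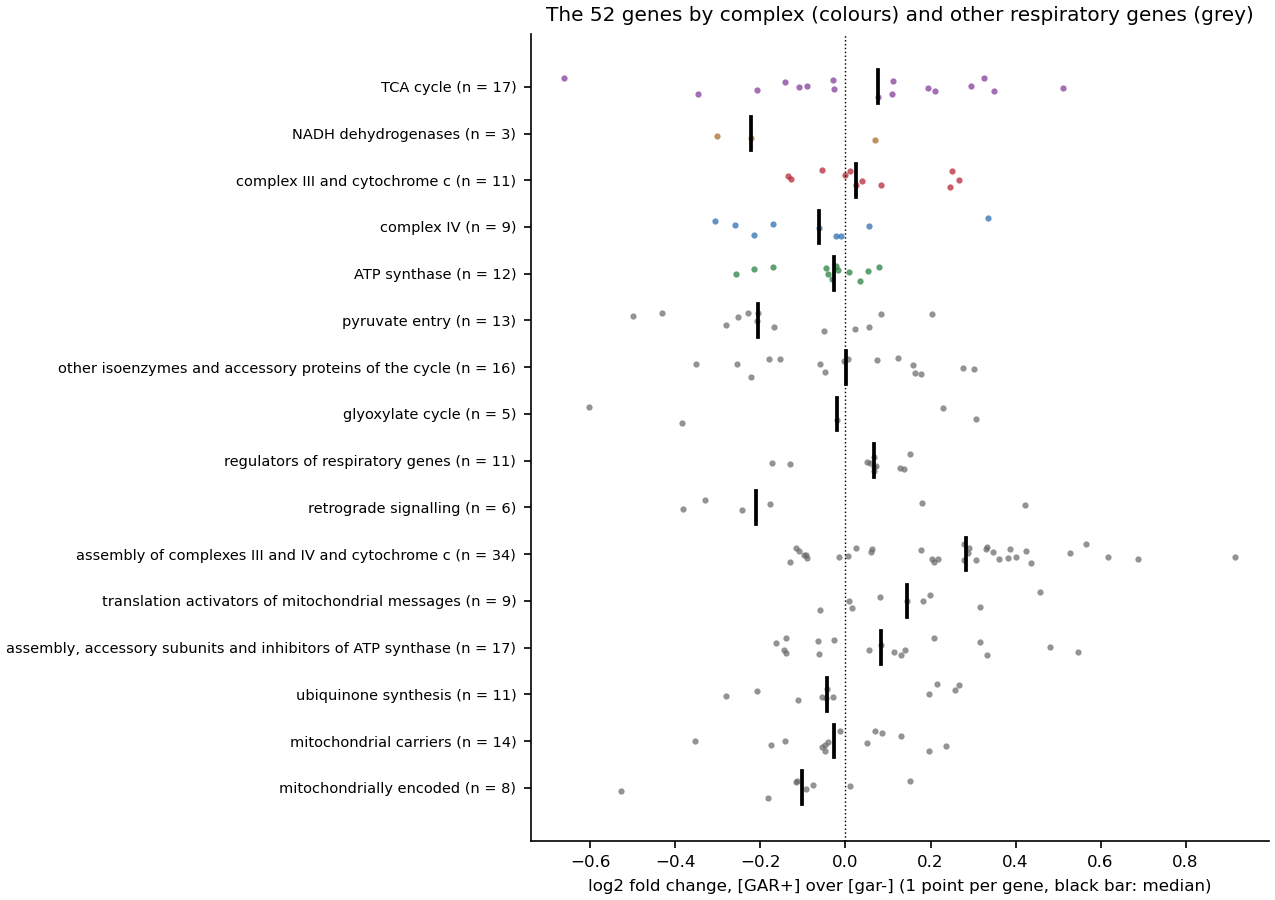
Log2 fold change of [GAR+] over [gar-] for the 52 genes by complex (colours) and for 11 lists of other respiratory genes (grey), 1 point per gene with the median as a black bar. The medians of the 5 coloured groups lie between -0.22 and 0.08, and that of the assembly factors of complexes III and IV lies at 0.28.

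The remaining lists held fewer genes, and most of their medians turned sign when 1 array was left out in turn. Those that kept it were the regulators, the translation activators and pyruvate entry. Regulators of respiratory genes had a median of 0.07 over 11 genes, with HAP1 at 0.15 and MOT3 at -0.17. The value of HAP1 is that of the brightest of its 3 probe sets. With the probe sets of each gene averaged, 8 regulators lay above 0 in place of 9, as HAP1 was no longer above 0. HAP4, the limiting part of the Hap activator, read 292, 208.5 and 246 in [GAR+], against 263, 321 and 237 in [gar-], a change of -0.13 with a standard error of 0.19. Genes of the retrograde pathway had a median of -0.21 over 6 genes, with RTG1 at 0.42 and LST8 at -0.38. That median was 0.02 without [GAR+] culture 2, where LST8 read 98.8, and -0.03 without both arrays numbered 2. RTG1 read 30.0, 43.0 and 31.0 in [GAR+], against 22.03, 19.8 and 22.9 in [gar-]. Its groups did not overlap (unadjusted p = 0.0203 and adjusted p = 1.00, limma), at signals near the controls. DLD3, a retrograde target besides CIT2, gave -0.33 with a standard error of 0.22, and read 278, 312 and 224 in [GAR+], against 412.5, 393 and 246 in [gar-].

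The 13 genes that bring pyruvate into the cycle had a median of -0.20, with 4 above 0. PYC1, a pyruvate carboxylase gene, gave -0.50 and PDB1, of the pyruvate dehydrogenase, 0.20. PYC1 read 289, 75.8 and 333 in [GAR+], against 318, 210.3 and 348.5 in [gar-], and the list's median was -0.04 without [GAR+] culture 2. Other isoenzymes and accessory proteins of the cycle had a median of 0.001 over 16 genes, with SDH7 at 0.30 and IDP3 at -0.35. The list named for the glyoxylate cycle, not all of whose genes act in it, had -0.02 over 5 genes. Its highest was the isocitrate lyase gene ICL1 at 0.31 and its lowest DAL7, which is not an enzyme of that cycle, at -0.60. DAL7 read 38.8, 36.1 and 28.0 in [GAR+], against 65.3, 68.3 and 48.4 in [gar-], above the controls on all 6 arrays. Its groups did not overlap (4.44% of all tested probe sets lay fully lower), with an unadjusted p of 0.00569 in limma, and it did not pass.

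Accessory and assembly genes of the ATP synthase had a median of 0.08 over 17 genes, with ATP23 at 0.55 and the inhibitor gene INH1 at -0.16. Translation activators of mitochondrial messages had 0.15 over 9 genes, with PET111 at 0.46 and PET54 at -0.06. Ubiquinone synthesis had -0.04 over 11 genes, with COQ5 at 0.27 and COQ4 at -0.28. Mitochondrial carriers had -0.03 over 14 genes, with FLX1 at 0.24 and AAC1 at -0.35. Of the 8 mitochondrially encoded transcripts COX1 and OLI1 read above the controls on all 6 arrays, ATP6 on 4, and the other 5 on 0. Their median of -0.10 was -0.48 with a pseudocount of 1 and 0.02 without [gar-] culture 1. COX1 gave 0.15 and OLI1, a subunit gene of the ATP synthase, -0.53. OLI1 read 482, 774 and 769 in [GAR+], against 948, 1126 and 826 in [gar-], without overlap (unadjusted p = 0.0323 and adjusted p = 1.00, limma). How well the poly(A) purification kept them is not known.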

How the data were processed

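RNA from 6 cultures was hybridised to 6 arrays: 2 µg of poly(A) RNA from a phenol-chloroform extract was labelled with biotin in each case, per the labels' protocols. The deposited table holds 1 linear signal intensity per probe set and array, for which the submitters' processing notes name MAS5 and GCOS. The sources used here give no version, scaling target or detection calls. The trimmed mean (2% at each end) of the deposited intensities was 500, 192 and 311 in [GAR+] cultures 1, 2 and 3, and 295, 295 and 250 in [gar-] cultures 1, 2 and 3.

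All 9335 probe sets were quantile-normalized, and log2(signal + 16) of the 6504 with exactly 1 gene in the platform annotation was fitted with limma 3.58.1 in R 4.3.3 (eBayes with an intensity trend, two-sided). All 6504 matched the gene table of assembly R64. Of several probe sets of a gene, that of the highest mean stood for it. The number of arrays limits the precision, with a median standard error of 0.18. Whether the cultures were independent beyond being grown separately is not stated.

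The 52 genes and all lists were chosen with earlier results of these data known, so no set test was run. Values are given in full for CIT2, the 10 other members of smallest unadjusted p, members whose groups do not overlap and the second gene of each isoenzyme pair, with others added after their values were seen. Of each further list the highest and the lowest gene are named, with a few added for their role or their groups. COQ7 and YJL045W are listed under newer symbols, and 2 listed genes are not reported here. Controls are 16 of the array's control probe sets for sequences foreign to yeast, picked by their names. Whether any of these sequences was spiked in was not checked. The deviations from the group means, of arrays sharing a number, had correlations of 0.322, 0.347 and 0.346, above the 0.1 taken as pairing, so the number was also fitted as a block. In data simulated from these arrays, with 50 probe sets changed at each size, the fit called 13 at 1.5-fold, 40 at 2-fold and 50 at 3-fold. It also called 9 unchanged ones. Changes were planted only in bright probe sets, and the noise was independent between arrays, with nothing shared by culture number. Many planted changes make the adjusted threshold easier to pass than in the real data, where 1 probe set passed. The real fit may thus miss more than the simulated one. No sequences were available for these genes, so none is shown.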

Additional observations from a re-analysis of the deposited data

How the results depend on the processing

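No member passed under any of the 15 alternatives, and 1 probe set, HXT3, passed in each of the 14 that keep probe sets apart. The median change of the 52 genes was 0.13 without normalization between arrays, where that of the TCA cycle was 0.22 and that of the ATP synthase 0.11, but the median of all tested probe sets was then 0.16. The median of the NADH dehydrogenases was -0.076 with a pseudocount of 64. With 1 array left out in turn it ranged from -0.25 to 0.021, that of the TCA cycle from -0.10 to 0.13 and that of all 52 genes from -0.08 to 0.05. Of the 52 genes, 25 kept their sign in all 6 such fits, 10 of them higher and 15 lower in [GAR+]. With the culture number as a replicate block the median stayed at -0.02 and the lowest adjusted p of a member was 0.735, so the block changed no call. The paired test of the isoenzyme differences was chosen after seeing the data. At 3 arrays a group, a 1.5-fold change was mostly missed even in the simulation, and a 2-fold change could be missed in these data.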
